A study of Mus musculus with 36 samples.

Results

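Small leucine-rich proteoglycans are secreted proteins of the extracellular matrix, and 8 of their genes were followed here in the mouse left ventricle after myocardial infarction (MI). They were taken by symbol from a table of 16415 genes, as decorin (Dcn), biglycan (Bgn), asporin (Aspn), lumican (Lum), fibromodulin (Fmod), Prelp, osteomodulin (Omd) and osteoglycin (Ogn). All 8 were present in the table, and all 8 reached 1 FPKM (fragments per kilobase of transcript, scaled to the mapped fragments of the library, so a level corrected for transcript length and depth) in at least 3 of the 18 mRNA libraries.

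Each protein of this family has a core of leucine-rich repeats, and most carry chains of chondroitin, dermatan or keratan sulfate. The cores lie along collagen fibrils and set how thick the fibrils grow and how they are spaced, and several cores also bind growth factors such as TGF-β. Class I holds decorin, biglycan and asporin, class II holds lumican, fibromodulin, Prelp and osteomodulin, and class III holds osteoglycin. In the heart they are made mainly by fibroblasts and related stromal cells, and they are part of the scar that replaces muscle after an infarct.

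The mice were C57BL/6 males, 8 weeks old at surgery. MI was produced by tying off the left anterior descending coronary artery near its origin, and sham mice had the same operation without the occlusion. Left ventricles were collected 1 day, 1 week or 8 weeks later, named here the early, middle and late stage, with 3 MI and 3 sham libraries at each stage. RNA came from pooled ventricles and the labels do not give the number of animals in a library or the part of the ventricle sampled, so p-values measure the spread between these libraries. Fewer cells of a type and less RNA per cell cannot be told apart in such tissue samples.

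Summed FPKM of 12 cardiomyocyte marker genes was between 40250 and 48700 in the 9 sham libraries, so heart muscle was present as labelled, and it fell to between 2921 and 9241 in MI libraries at 1 week. The late MI libraries differed from each other. Their summed FPKM of 6 adipocyte markers was 21.7 in replicate 1, 338.8 in replicate 2 and 1409 in replicate 3, against 19.9 to 34.5 in sham libraries, and their 12 cardiomyocyte markers summed to 38870, 26660 and 16320. Skeletal muscle markers reached 235.1 and mesothelial markers 200.4 in late MI replicate 3. No file gives read counts. The smallest FPKM values move in steps, and these gave depths between 0.836 and 1.15 times that of the first sham library at 1 day. The median of all 12858 tested genes was itself higher in MI by 0.09, 0.79 and 0.52 on the log2 scale at the 3 stages, which is the baseline for the changes below. On the FPKM scale 9365 genes were called higher and 2124 lower at 1 week, and 9056 and 1358 at 8 weeks. With median-ratio factors, which centre the genes, these were 5364 and 5090, and 4574 and 4767, while all 8 proteoglycan genes stayed higher.

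The 8 genes lie in 4 places of the mouse genome (build GRCm38.p6, the mm10 assembly of the deposited files). Prelp (chr1:133910304-133930102) and Fmod (chr1:134037254-134048280) are close together, as are Dcn (chr10:97479500-97518163) and Lum (chr10:97565501-97572703). Aspn (chr13:49544443-49567565), Omd (chr13:49582462-49592612) and Ogn (chr13:49608015-49624501) form a row on one strand of chromosome 13, and Bgn lies on the X chromosome (chrX:73483601-73495936). Cenpp, a centromere protein gene, spans Aspn, Omd and Ogn on the opposite strand. Whether reads were counted by strand is not stated, so their reads cannot be told apart with certainty. Cenpp itself stayed between 0.292 and 2.63 FPKM in the 18 libraries, with means of 1.15 to 1.48 FPKM in sham groups, above those of Omd (0.482 to 0.588 FPKM). In early MI libraries it was at most 0.55 FPKM, below Aspn and Ogn in the same libraries.

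RefSeq promoter windows of build GRCm38.p6 were at hand for 6 of the 8 genes, and the 250 bases before the transcription start are shown for 4 of them. Fmod is shown because it rose most, and Ogn, Aspn and Prelp because they fell at the early stage before rising. The windows are chr1:134037004-134037253 (plus strand), chr13:49607765-49608014 (plus strand), chr13:49544193-49544442 (plus strand) and chr1:133921402-133921651 (minus strand, at an inner start of the gene). Capitals mark matches on either strand to 4 motifs, namely TATAAA (bound by TBP at start sites), CAGAC (a core of sites for SMAD factors, which carry TGF-β signals), CATTCC (bound by TEAD factors) and TGANTCA (bound by AP-1). In Ogn the matches of the first motif on both strands overlap.
Fmod: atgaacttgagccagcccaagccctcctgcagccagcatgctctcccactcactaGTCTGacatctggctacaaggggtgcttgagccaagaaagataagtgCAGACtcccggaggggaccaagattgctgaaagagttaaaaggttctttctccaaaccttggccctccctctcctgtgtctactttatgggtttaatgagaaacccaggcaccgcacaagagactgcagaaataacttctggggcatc
Ogn: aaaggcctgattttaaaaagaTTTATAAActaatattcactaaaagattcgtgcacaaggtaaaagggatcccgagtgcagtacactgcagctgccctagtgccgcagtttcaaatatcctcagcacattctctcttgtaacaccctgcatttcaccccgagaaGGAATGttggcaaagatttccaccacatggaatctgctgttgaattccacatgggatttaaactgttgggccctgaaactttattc
Aspn: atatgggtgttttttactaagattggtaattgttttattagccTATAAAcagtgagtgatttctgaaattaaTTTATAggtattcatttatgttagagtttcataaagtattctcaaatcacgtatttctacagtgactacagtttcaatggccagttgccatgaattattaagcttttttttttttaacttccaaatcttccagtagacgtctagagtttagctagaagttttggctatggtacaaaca
Prelp: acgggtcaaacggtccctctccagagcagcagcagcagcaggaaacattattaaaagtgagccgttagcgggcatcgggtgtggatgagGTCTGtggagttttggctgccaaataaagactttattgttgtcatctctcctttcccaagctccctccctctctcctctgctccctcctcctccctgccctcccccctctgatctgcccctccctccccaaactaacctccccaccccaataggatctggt

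CAGAC was found in 2 of the 6 windows, with 2 matches in Fmod and 1 in Prelp, and it was present in 42.2% of the 32851 windows of all genes. TATAAA was found in 2 of 6 (Aspn and Ogn) against 12.4% of all windows, CATTCC in 1 of 6 (Ogn) against 12.6%, and TGANTCA in 0 of 6 against 6.7%. The TATAAA matches lay 173 to 207 bases before the start in Aspn and 222 to 229 bases before it in Ogn, not next to it. The GC content ranged from 30% in Aspn to 64.4% in Bgn. None of the 4 motifs was in all 6 windows.

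In sham hearts the family was dominated by decorin. Dcn, which carries a single chondroitin or dermatan sulfate chain and coats collagen fibrils, made up 59.2% ± 2.05 of the summed FPKM of the 8 genes at 1 day (mean ± s.d.; n = 3), 50.5% ± 1.65 at 1 week and 55.8% ± 0.171 at 8 weeks. Bgn, its closest relative with a pair of chains, followed with 20.5% ± 1.75, 24.6% ± 2.66 and 20.2% ± 1.08. Ogn and then Lum came next at each stage. Fmod and Omd were nearly silent, with 0.142 to 1.58 FPKM and 0.35 to 0.838 FPKM in the 9 sham libraries.

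No member differed between sham groups in limma, either at 1 week against 1 day or at 8 weeks against 1 week, where 1.42% and 0.848% of all tested genes were called. At an unadjusted p under 0.05 there was 1 member in the first comparison (Fmod) and 3 in the second (Bgn, Lum and Fmod). Fmod was higher in the sham libraries at 1 week, with 1.37, 0.827 and 1.58 FPKM, than at 1 day, with 0.183, 0.142 and 0.153 FPKM. These groups did not overlap, and the change was 0.95 on the log2(FPKM + 1) scale (adjusted p = 0.183). The spread in this fit was shared with the late MI libraries. Without late MI replicates 2 and 3, Fmod, Ogn, Aspn and Bgn were called higher in sham mice at 1 week than at 1 day, and Fmod, Bgn, Lum and Prelp lower at 8 weeks than at 1 week. Of all 12858 tested genes this fit called 312 higher and 658 lower in the first comparison, and 205 higher and 691 lower in the second.

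**Figure D1:**
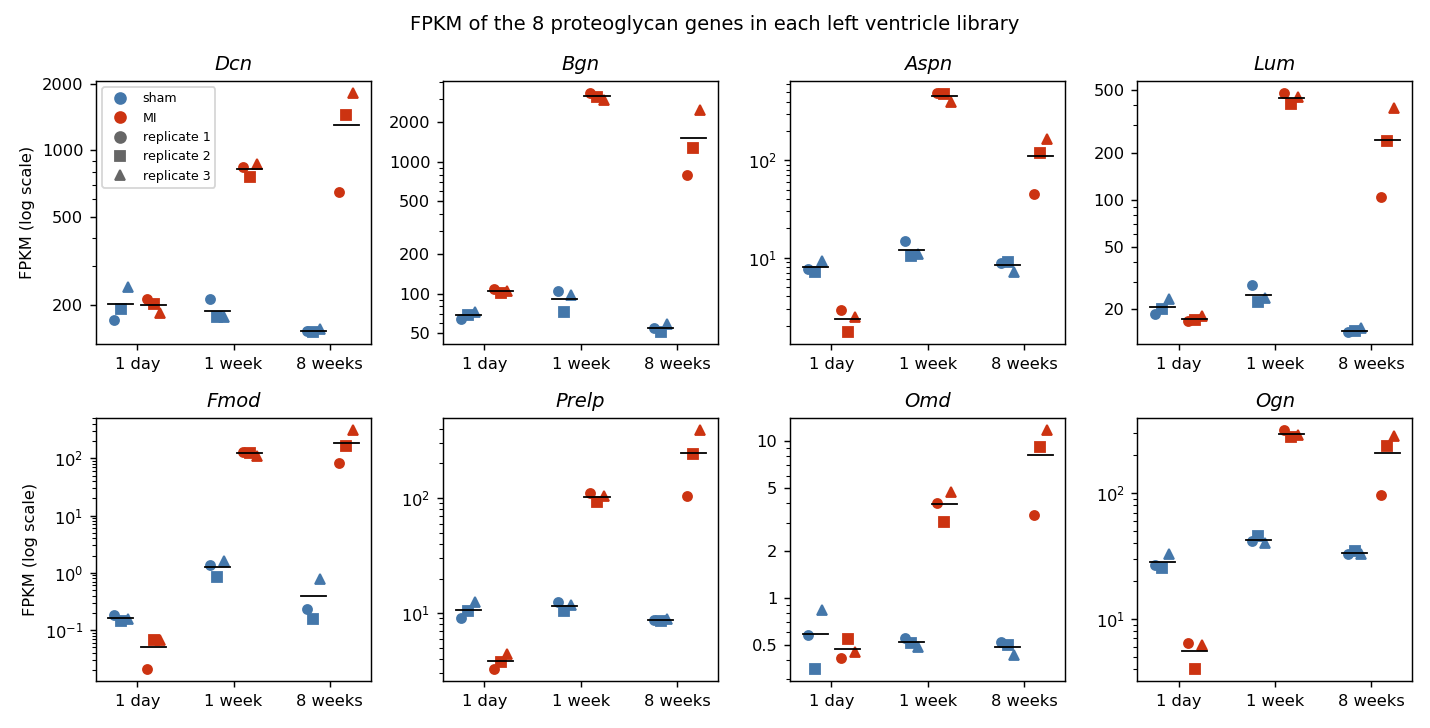
FPKM of the 8 genes (log axis) in each of 18 libraries, by stage, with sham in blue, MI in red, a symbol for each replicate and a black line at the group mean. At 1 day Aspn, Prelp, Ogn, Lum and Fmod lay wholly below sham and Bgn wholly above it, and of these Aspn, Prelp and Ogn were called. At 1 week and 8 weeks all 8 genes were above sham, and late MI replicate 1 was the lowest of its group for each of the 8 genes.

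At the early stage 3 of the 8 genes fell and none rose. Ogn, the class III member first found in bone, fell 5.1-fold. It measured 26.7, 25.5 and 32.9 FPKM in sham mice and 6.46, 3.99 and 6.22 FPKM in MI mice (log2 change -2.18 ± 0.28 (SE), limma adjusted p = 3.28e-06). Aspn, which has a run of aspartate residues in place of chains, fell from 7.69, 7.09 and 9.33 FPKM to 2.94, 1.72 and 2.44 FPKM (log2 change -1.43 ± 0.32, limma adjusted p = 0.000761). Prelp, whose arginine- and proline-rich end binds heparan sulfate, fell from 9.09, 10.5 and 12.5 FPKM to 3.28, 3.79 and 4.41 FPKM (log2 change -1.27 ± 0.3, limma adjusted p = 0.00141). In each of the 3 genes the MI and sham libraries did not overlap. The share of all tested genes called was 30.6% for lower and 39.7% for higher, so 3 falls among 8 genes is close to the background.

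Decorin was not called at this stage. Dcn was 171, 191.2 and 239.7 FPKM in sham mice and 211, 201.2 and 183 FPKM in MI mice, overlapping, with a log2 change between -0.55 and 0.54 (95% confidence interval). Bgn was 64.7, 68.9 and 72.1 FPKM in sham mice and 109, 101.2 and 104.6 FPKM in MI mice. The groups did not overlap, but its log2 change of 0.61 ± 0.27 missed the threshold (limma adjusted p = 0.0533). It passed without late MI replicate 1 (adjusted p = 0.00607), without late MI replicate 3 (adjusted p = 0.00172) and with this stage fitted alone (adjusted p = 3.49e-05), where Lum and Fmod were also called, as lower.

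Lum, the keratan sulfate proteoglycan that orders collagen in the cornea, was 18.6, 20.1 and 23.2 FPKM in sham mice and 16.8, 17.1 and 18.1 FPKM in MI mice, and was not called (log2 change -0.23 ± 0.29, limma adjusted p = 0.489). Fmod, a keratan sulfate proteoglycan abundant in tendon, was at 0.0209, 0.0667 and 0.0656 FPKM in MI mice against 0.183, 0.142 and 0.153 FPKM in sham mice. In steps of the smallest unit seen for this gene, these values were 2, 6 and 7 against 17, 14 and 15, so they may rest on that few fragments and were not called (limma adjusted p = 0.704). Omd was below 1 FPKM in all 6 libraries. Counted by ranges alone, 5 members lay wholly below sham and 1 wholly above, where 35.9% and 45.4% of all tested genes did so.

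In the same early MI libraries the 7 neutrophil markers summed to between 6175 and 10060 FPKM against 18.3 to 37.9 FPKM in sham libraries, and the 7 resting fibroblast markers to between 73.6 and 85 FPKM against 64.6 to 84.4 FPKM. Of the resting fibroblast markers 2 rose and 3 fell. The 10 activated fibroblast markers summed to between 204.7 and 285.7 FPKM against 61.2 to 73.3 FPKM. The 12 cardiomyocyte markers summed to between 14700 and 18110 FPKM against 40250 to 43240 FPKM, and the 7 smooth muscle and pericyte markers to between 93.3 and 103.8 FPKM against 171.6 to 225.5 FPKM. The part of any of these cell types in the falls of Ogn, Aspn and Prelp was not tested.

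One week after MI all 8 genes were higher than in sham mice, against 72.8% of all tested genes (16.5% were lower). Their median log2 change was 3.58, where that of all tested genes was 0.79. In class I, Bgn rose 34.2-fold, from 104.8, 73.2 and 96.9 FPKM in sham mice to 3324, 3104 and 2962 FPKM in MI mice (log2 change 5.09 ± 0.27, limma adjusted p = 2.83e-10). Aspn rose 37.8-fold, from 14.7, 10.4 and 10.9 FPKM to 490.6, 478 and 395.2 FPKM (log2 change 5.14 ± 0.32). Dcn rose 4.37-fold, from 212.1, 175.6 and 175.7 FPKM to 841.6, 755.3 and 865 FPKM (log2 change 2.12 ± 0.26). Biglycan and asporin thus rose far more than decorin, and Bgn passed Dcn in every MI library at 1 week.

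In class II, Fmod went from near silence to 130.2, 125.5 and 110.3 FPKM in MI mice, 96.9-fold above the sham mean (log2 change 5.78 ± 0.31). Lum rose 18-fold, to 479.5, 409.2 and 449.9 FPKM from 28.5, 22.2 and 23.6 FPKM. Prelp rose 8.78-fold, to 110.4, 92.2 and 103.5 FPKM from 12.5, 10.6 and 11.8 FPKM. Omd, named osteoadherin for its place in bone matrix, stayed the lowest of the 8, at 4.05, 3.04 and 4.77 FPKM against 0.554, 0.51 and 0.485 FPKM. Ogn rose 7.02-fold, to 320.1, 281.1 and 289.9 FPKM from 41.6, 45.2 and 40.1 FPKM. In each of the 8 genes every MI library was above every sham library, as in 74.8% of all tested genes.

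At 8 weeks all 8 genes were again higher, against 70.4% of all tested genes (10.6% were lower), and again no library of one group overlapped the other, as in 66.3% of all tested genes. Their median log2 change was 3.58 against 0.52 for all tested genes. Dcn measured 649, 1453 and 1822 FPKM in MI mice and 152.3, 149.7 and 155.3 FPKM in sham mice (log2 change 2.97 ± 0.26, limma adjusted p = 1.07e-07). Bgn measured 788.6, 1280 and 2488 FPKM against 55.2, 51 and 59.2 FPKM. Aspn measured 45.5, 119.7 and 166.4 FPKM against 8.8, 9.08 and 7.18 FPKM. In each of the 8 genes late MI replicate 1 was lowest and replicate 3 highest.

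Fmod measured 84.4, 166.2 and 316.5 FPKM in late MI mice and 0.23, 0.153 and 0.787 FPKM in sham mice, with a log2 change of 6.92 ± 0.31 that exceeded those of the other 7 members at this stage. Lum measured 104.8, 235.5 and 384 FPKM against 14.3, 14.5 and 15.1 FPKM, and Prelp 103.7, 244 and 393.3 FPKM against 8.7, 8.49 and 8.85 FPKM. Their levels came close to each other in all 3 late MI libraries. Omd measured 3.4, 9.16 and 11.9 FPKM against 0.521, 0.495 and 0.431 FPKM, and Ogn 96.6, 239.4 and 287.2 FPKM against 32.7, 34.4 and 32.6 FPKM.

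The ratio of late MI replicate 3 to replicate 1 was between 2.81 (Dcn) and 3.79 (Prelp) in the 8 genes. It was 4.78 for Col1a1, 3.34 for Postn, 759 for the adipocyte gene Adipoq and 0.454 for the cardiomyocyte gene Myh6. All 8 members and the markers of other tissue thus differed between the same libraries, and the part of that tissue in the members' levels was not tested. With replicate 1 as the only late MI library, assumed to vary like the other groups, all 8 genes were still called higher, as were 6527 of the 12858 tested genes. Log2 changes then were 2.08 for Dcn, 3.82 for Bgn, 2.32 for Aspn, 2.76 for Lum, 5.97 for Fmod, 3.44 for Prelp, 1.57 for Omd and 1.51 for Ogn.

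**Figure D2:**
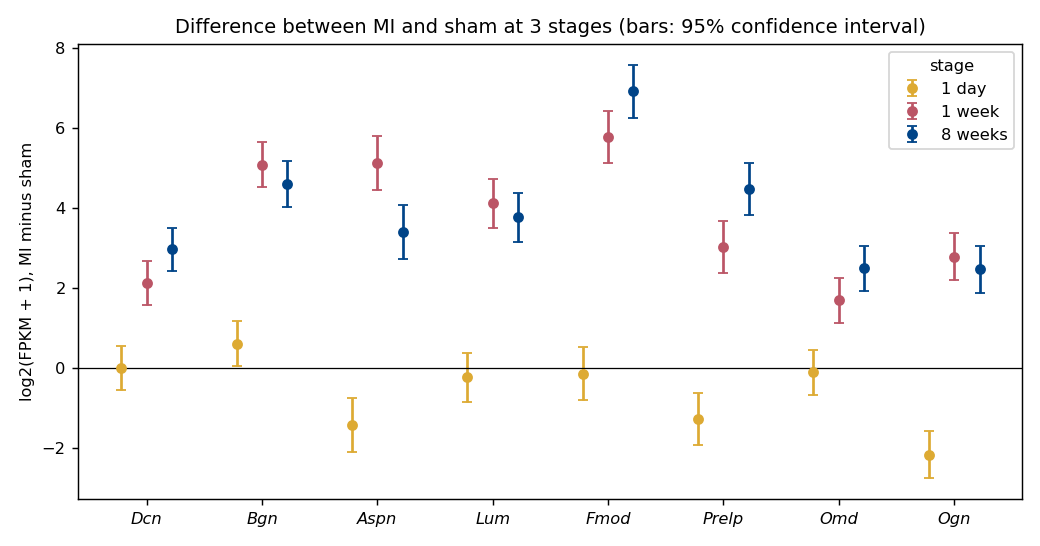
Difference of log2(FPKM + 1) between MI and sham for each gene at 1 day (yellow), 1 week (red) and 8 weeks (blue), with 95% confidence intervals from limma (3 libraries per group). Fmod, Prelp, Omd and Dcn have their highest point at 8 weeks, and Bgn, Aspn, Lum and Ogn at 1 week; the intervals of the 2 later stages overlap in part for 6 genes and are apart for Aspn and Prelp.

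Whether the changes differed between stages was tested directly, with 1 contrast for each pair of stages. From the early to the middle stage the change became more positive in 8 of 8 members, where 60.0% of all tested genes did so and 11.8% went the other way. The difference was largest for Aspn (6.57 ± 0.45) and Fmod (5.92 ± 0.44), followed by Ogn (4.96 ± 0.39), Bgn (4.49 ± 0.38), Lum (4.36 ± 0.41) and Prelp (4.3 ± 0.43), and smallest for Dcn (2.13 ± 0.36) and Omd (1.8 ± 0.38), all on the log2(FPKM + 1) scale. This order depends on the scale, as the added 1 compresses low values. As ratios of mean FPKM to sham, Fmod went from 0.32 to 96.9 and Aspn from 0.294 to 37.8. Omd went from 0.795 to 7.65 and Dcn from 0.989 to 4.37. From the early to the late stage it also became more positive in 8 of 8, against 51.8% of all tested genes, with 11.9% in the other direction.

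Between the middle and the late stage 2 members were called higher and 1 lower. The change at 8 weeks exceeded that at 1 week for Prelp (1.45 ± 0.43, limma adjusted p = 0.0125) and Fmod (1.14 ± 0.44, adjusted p = 0.044), and fell short of it for Aspn (-1.74 ± 0.45, adjusted p = 0.00591). It was not called for Dcn (0.84 ± 0.36, adjusted p = 0.0677), Omd (0.8 ± 0.38, adjusted p = 0.0923), Bgn (-0.49 ± 0.38, adjusted p = 0.291), Lum (-0.35 ± 0.41, adjusted p = 0.49) or Ogn (-0.32 ± 0.39, adjusted p = 0.516). Of all tested genes 17.1% were called higher and 29.9% lower in this contrast, so the count of called members is near the background. The calls for Prelp and Fmod rest on late MI replicates 2 and 3. Without both, Prelp (0.41, adjusted p = 0.0612) and Fmod (0.19, adjusted p = 0.504) were not called, while Aspn (-2.82), Lum (-1.36), Bgn (-1.28) and Ogn (-1.27) were called lower. In that fit 2198 of the 12858 tested genes were higher and 7156 lower, so 4 lower calls among 8 genes are near the background. Without replicate 1, the count of called members was 5, with 4 higher and 1 lower, where 2529 of all tested genes were higher and 3224 lower.

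Because all members rose and fell together across the late MI libraries, their levels were also compared within each library. Relative to Dcn on the log2(FPKM + 1) scale, 6 members were called higher and 1 lower at 1 week, against 5.70% and 82.6% of all tested genes. Fmod gained 3.65 ± 0.22 on Dcn on the log2 scale, Aspn 3.01 ± 0.21, Bgn 2.97 ± 0.25, Lum 2 ± 0.2, Prelp 0.9 ± 0.19 and Ogn 0.66 ± 0.21, while Omd differed by -0.43 ± 0.18 (limma adjusted p = 0.0291). At 8 weeks 4 members were called higher relative to Dcn and 2 lower, against 0.708% and 97.3% of all tested genes. Aspn did not pass (0.43 ± 0.21, adjusted p = 0.0502). Dcn itself rose at both stages, and the median of all tested genes relative to Dcn was -1.33 at 1 week and -2.44 at 8 weeks. These shares thus reflect the rise of Dcn and are no independent background for the members. Bgn (1.64 ± 0.25), Lum (0.8 ± 0.2), Prelp (1.52 ± 0.19) and Fmod (3.96 ± 0.22) were above Dcn's change, and Ogn (-0.5 ± 0.21) and Omd (-0.48 ± 0.18) were below it. At 1 day Bgn rose relative to Dcn (0.61 ± 0.25, adjusted p = 0.0437) and Ogn, Aspn and Prelp fell, against 28.6% and 18.3% of all tested genes. The call for Bgn was lost under a replicate block. With the late stage fitted alone 3 members were called, all higher, and both lower calls were lost. With late MI replicate 1 alone the same 6 members were called at 8 weeks, with Bgn at 1.73, Lum at 0.68, Prelp at 1.35, Fmod at 3.89, Ogn at -0.57 and Omd at -0.51. The direction of Omd against Dcn turned on the FPKM scale, where the added 1 does not compress low values. As ratios of mean FPKM, Omd rose 7.65-fold and Dcn 4.37-fold at 1 week, and 16.9-fold and 8.58-fold at 8 weeks. Ogn, at 6.25-fold at 8 weeks, stayed below Dcn on this scale too.

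**Figure D3:**
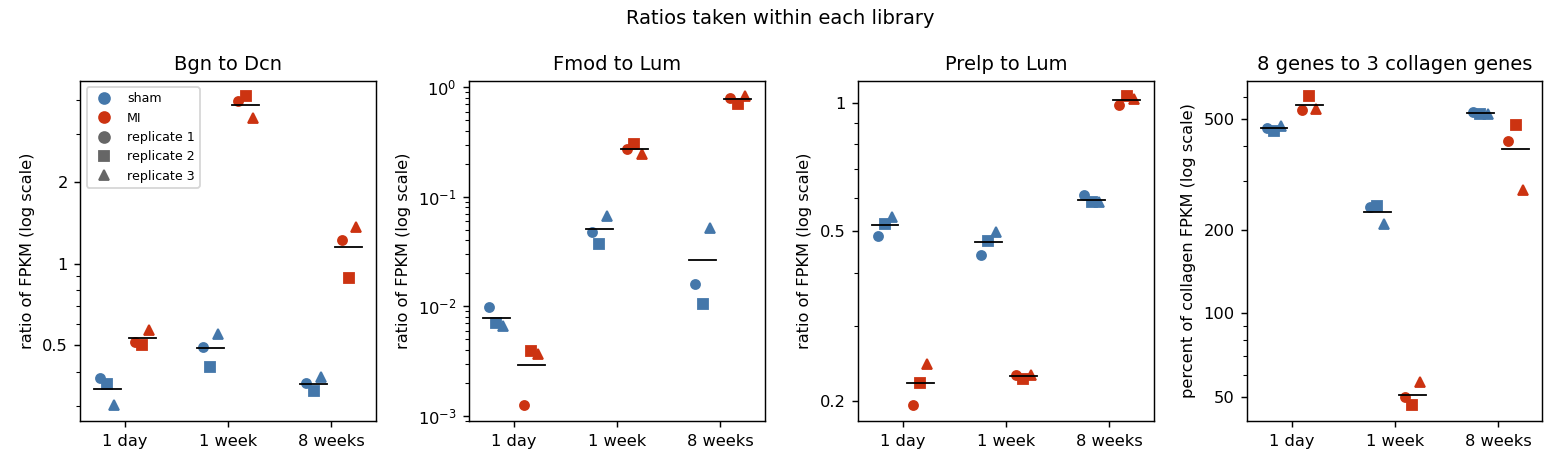
Ratios taken within each library (log axes) by stage, with sham in blue and MI in red: Bgn to Dcn, Fmod to Lum, Prelp to Lum, and the summed FPKM of the 8 genes as a percent of Col1a1, Col1a2 and Col3a1 together. The 3 late MI libraries lie close together for Prelp to Lum (0.989 to 1.04) although their levels differ by 3.66- to 3.79-fold.

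The ratio of Bgn to Dcn was 0.347 ± 0.0406 in sham and 0.53 ± 0.0362 in MI mice at 1 day (mean ± s.d.; n = 3). It reached 3.95, 4.11 and 3.42 in the MI libraries at 1 week and 1.22, 0.881 and 1.37 at 8 weeks, against 0.361 ± 0.0204 in late sham mice. Bgn therefore led Dcn by several fold at the middle stage and stood near it at the late stage. The ratio of Fmod to Lum was 0.272, 0.307 and 0.245 in MI libraries at 1 week and 0.805, 0.706 and 0.824 at 8 weeks. The ratio of Prelp to Lum was 0.23, 0.225 and 0.23 at 1 week and 0.989, 1.04 and 1.02 at 8 weeks. In sham mice of these stages Fmod to Lum was 0.0507 ± 0.015 and 0.0263 ± 0.0225. Prelp to Lum was 0.471 ± 0.0285 and 0.594 ± 0.0137 there, so in MI mice it was below sham at 1 week and above it at 8 weeks. The ratios were chosen after seeing the values. None of these late MI libraries overlapped the 1-week MI libraries in any of the 3 ratios (exact two-sided permutation p = 0.1 for each, the smallest that 3 against 3 allows). The shift among class II members was thus present in each late library, replicate 1 included.

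The make-up of the family followed. At 1 week Bgn made up 58.2% ± 0.99 of the summed FPKM of the 8 genes in MI mice and Dcn 15.3% ± 1.24, and at 8 weeks 39.5% ± 4.65 and 34.8% ± 3.87. Aspn held 8.45% ± 0.752 at 1 week and 2.82% ± 0.384 at 8 weeks, while Prelp went from 1.9% ± 0.126 to 6.25% ± 0.631 and Fmod from 2.27% ± 0.131 to 4.78% ± 0.535. Ogn held 5.52% ± 0.145 and 5.48% ± 0.8, about the same at both, and less than its 11.5% ± 1.72 and 12.2% ± 0.62 in the sham mice of those stages. The sum itself was 332.9 ± 15.6 FPKM in early MI mice against 337.7 ± 47.6 FPKM in sham mice, then 5376 ± 282.7 against 371.9 ± 39.8 FPKM at 1 week and 3831 ± 1998 against 273.3 ± 5.88 FPKM at 8 weeks. It amounted to 0.106% ± 0.00966 of the FPKM of all genes in MI mice at 1 day, 1.37% ± 0.0423 at 1 week and 1.01% ± 0.488 at 8 weeks.

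**Figure D4:**
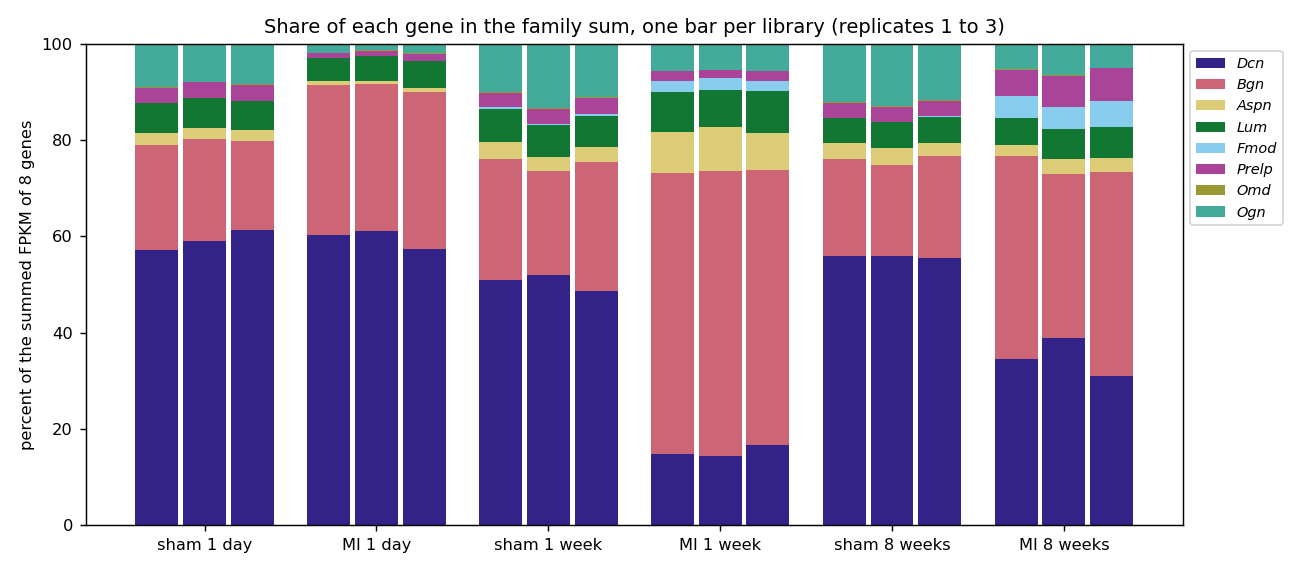
Percent of the summed FPKM of the 8 genes held by each gene, one stacked bar for each of 18 libraries. Dcn is the largest part in all 9 sham and the 3 early MI libraries, Bgn in the 3 MI libraries at 1 week, and both are similar at 8 weeks, when Fmod and Prelp are wider than at 1 week.

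The courses of the collagens and of the 8 members differed only in part. Col6a1, on the same list of collagens, ran much as Aspn did (Pearson's r = 0.995 over the 18 libraries). Bgn, Lum and Ogn, too, had their highest mean in MI mice at 1 week. At 1 day Col5a2 rose (5.63 ± 0.889 FPKM in sham and 14 ± 0.654 FPKM in MI mice) and Col6a1 and Col6a2 fell, the latter from 14.5 ± 2.17 to 7.95 ± 0.563 FPKM. Of 13 tested fibrillar, fibril-associated and beaded-filament collagen genes, 13 rose at 1 week (median log2 change 5.61) and 13 at 8 weeks (median 2.56). At these stages 72.8% and 70.4% of all tested genes rose. Between them 12 of the 13 were called lower and 0 higher, against 29.9% and 17.1% of all tested genes. Of the 8 proteoglycan genes 1 was lower (Aspn) and 2 higher (Prelp and Fmod). The 2 higher calls rest on late MI replicates 2 and 3. Without both, those calls were lost, and Lum, Bgn and Ogn moved down too, as given above. Col1a1, Col1a2 and Col3a1, the main chains of scar collagen, summed to 10600 ± 1248 FPKM in MI mice at 1 week and 1118 ± 879.7 FPKM at 8 weeks. The 8 proteoglycan genes summed to 50.0%, 46.7% and 56.5% of these collagens in the 3 MI libraries at 1 week and to 415%, 476.3% and 277.5% at 8 weeks. Sham libraries stood at 462.3% ± 8.83, 231.3% ± 19.4 and 524.6% ± 4.94 at the 3 stages. The 1-week and 8-week MI libraries did not overlap (exact two-sided permutation p = 0.1, the smallest possible), and the late values were below those of late sham mice in all 3 libraries. In sham mice the same 3 collagens were lower at 8 weeks than at 1 week (Col3a1 log2 change -1.6 ± 0.33, limma adjusted p = 0.0372, while Col1a1 and Col1a2 did not pass, with adjusted p = 0.0583 and 0.0634), so the contrast between stages also holds a sham difference.

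Of 9 other genes of the family on a fixed list, 7 were in the table and 4 passed the filter on low values. Ecm2, which stands before Aspn in the row on chromosome 13, fell early and rose later, as Aspn and Ogn did. It measured 5.8, 5.64 and 7.65 FPKM in sham and 0.943, 0.827 and 1.23 FPKM in MI mice at 1 day (log2 change -1.88 ± 0.23, limma adjusted p = 2.04e-06), and rose 4.07-fold at 1 week and 5.31-fold at 8 weeks. Cenpp overlaps Ecm2 on the opposite strand too, and mean Cenpp at 1 day was 1.15 FPKM in sham and 0.395 FPKM in MI mice. Podn (podocan), which binds collagen, fell at 1 day (3.97 ± 0.195 FPKM in sham and 2.11 ± 0.202 FPKM in MI mice) and rose 4.93-fold and 9.34-fold later. Tsku (tsukushi), a secreted regulator of BMP and Wnt signals, took the opposite course at 1 day. It rose 6.83-fold, from 0.826, 0.805 and 1.17 FPKM to 6.48, 6.92 and 5.75 FPKM, and stayed 13.1-fold and 9.6-fold above sham at the later stages.

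Chad (chondroadherin, a cartilage protein that binds collagen and integrin) appeared late. It was below 0.25 FPKM in all sham and early MI libraries, at 1.59, 0.947 and 1.27 FPKM in MI mice at 1 week, and at 8.52, 23.3 and 53.1 FPKM at 8 weeks. Its change at 8 weeks exceeded that at 1 week by 3.35 ± 0.54 on the log2 scale (limma adjusted p = 0.000299). In the sham mice at 8 weeks its values correspond to 1, 0 and 12 steps of its smallest unit. Acsf2 overlaps it on the opposite strand. The members that did not pass the filter were Epyc, which reached 0.426, 2.91 and 2.42 FPKM in late MI mice and at most 0.0194 FPKM in sham libraries, and Optc and Nyx, which stayed below 0.4 FPKM throughout. Kera and Podnl1 were not analysed here.

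**Figure D5:**
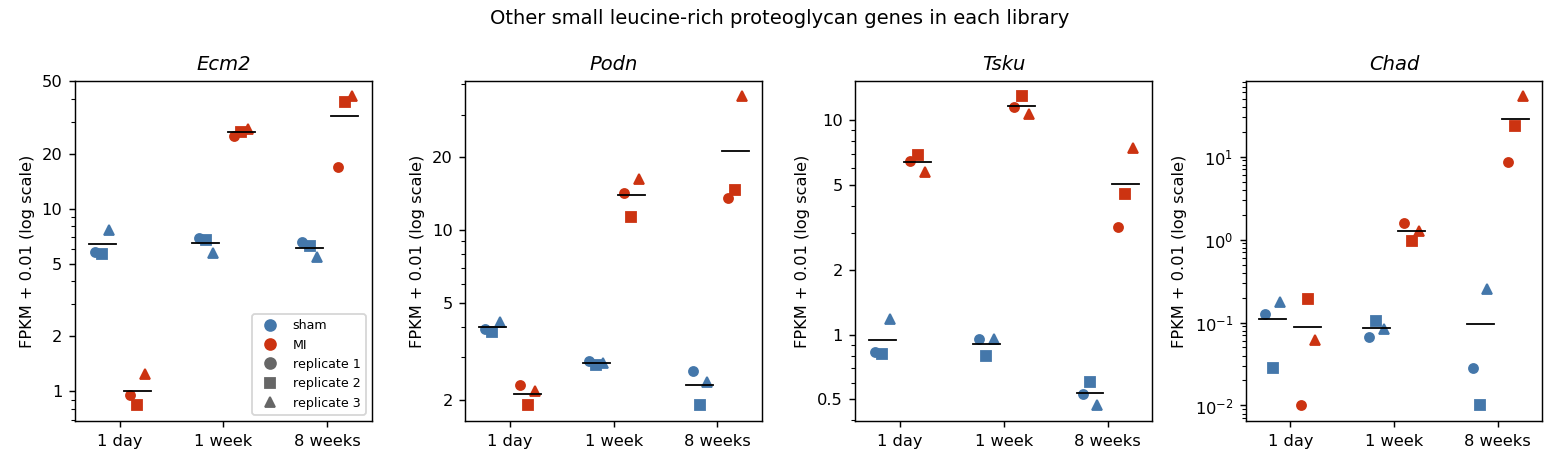
FPKM + 0.01 (log axis) of Ecm2, Podn, Tsku and Chad in each of 18 libraries by stage, with sham in blue, MI in red and a black line at the group mean. At 1 day Ecm2 and Podn lie below sham and Tsku above it; Chad reaches 8.52 FPKM or more in the late MI libraries alone.

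Of 13 listed cartilage, tendon and bone markers 8 were in the table, Comp and Cilp among them. The bone genes Bglap and Ibsp were not. The 8 were higher in MI at both later stages, with 8 of 8 called at each, against 72.8% and 70.4% of all tested genes. Their median log2 change was 3.75 at 1 week and 2.89 at 8 weeks. These 8 genes summed to between 405.3 and 429.2 FPKM in MI mice at 1 week and to 345.1, 657.1 and 1117 FPKM in the 3 late MI libraries, against 6.11 to 9.14 FPKM in sham libraries. In MI mice the 10 activated fibroblast markers summed to between 6045 and 8078 FPKM at 1 week and to between 402 and 1265 FPKM at 8 weeks. All 10 were still called higher than sham at 8 weeks (median log2 change 3.57), with late sham sums of 51.06 to 52.65 FPKM. The 7 resting fibroblast markers summed to between 581.3 and 681.8 FPKM at 1 week and to between 245.5 and 606.5 FPKM at 8 weeks. The part of any of these cells in the members' changes was not tested.

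Genes that build or bind the family were read against the share of all tested genes called higher, 39.7%, 72.8% and 70.4% at the 3 stages, and the median changes of 0.09, 0.79 and 0.52. Of 7 genes that make the linker between core and chain, 6 rose at 1 week and 6 at 8 weeks (median log2 change 1.5 and 0.67), and at 1 day 3 rose and 2 fell, all near the background. Xylt1, a xylosyltransferase that starts the chain, rose from 0.279 ± 0.102 to 6.25 ± 0.895 FPKM at 1 week, and Pxylp1, a xylose phosphatase, from 1.58 ± 0.0942 to 9.69 ± 0.633 FPKM. At 1 day Fam20b, the xylose kinase, fell from 17.1 ± 0.69 to 10.4 ± 0.967 FPKM and B3gat3, which adds the last sugar of the linker, from 11.9 ± 0.328 to 9.35 ± 0.886 FPKM. B3gat3 was not called at 1 week, and it was lower there under each of 4 other scalings. These counts depended on the scaling, and at 8 weeks they ran from 2 to 4 higher and 1 to 2 lower under 4 other scalings. Of all 12858 tested genes these scalings called 3575 to 4574 higher and 4767 to 5534 lower at 8 weeks. At 8 weeks Xylt2 reached 5.42 ± 1.23 FPKM from 1.93 ± 0.0807 FPKM and B4galt7 5.94 ± 0.914 FPKM from 2.9 ± 0.0229 FPKM.

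Of 14 tested genes for chondroitin and dermatan sulfate, 10 rose at 1 day, 14 at 1 week and 14 at 8 weeks, with 0 lower, and median log2 changes of 0.79, 2.24 and 1.45. Under 4 other scalings 8 to 10 rose at 1 day and 12 to 13 at 8 weeks. At 1 week 13 rose and 0 to 1 fell under these scalings. Chst11, a chondroitin sulfotransferase, led at 1 day (1.09 ± 0.198 FPKM in sham and 11.4 ± 2.7 FPKM in MI mice), with Chpf2, a chain polymerase subunit, at 1.89 ± 0.38 and 7.51 ± 0.431 FPKM. At 1 week Chpf rose from 6.11 ± 0.672 to 72.5 ± 2.94 FPKM, and Dse, the epimerase that turns chondroitin into dermatan sulfate, from 1.57 ± 0.511 to 24 ± 1.83 FPKM. At 8 weeks Dse stood at 12 ± 7.56 FPKM and Chst12 at 13.3 ± 7.59 FPKM, against 1.03 ± 0.0554 and 1.19 ± 0.0919 FPKM. Of 5 keratan sulfate genes 4 rose at 1 day, 5 at 1 week and 4 at 8 weeks, with a late median of 0.69. With the median of each library subtracted 1 was higher and 1 lower at 8 weeks, where 3575 of all tested genes were higher and 5534 lower. Chst1, a keratan sulfate sulfotransferase, rose from 0.958 ± 0.164 to 10.5 ± 0.829 FPKM at 1 day, when the keratan sulfate carriers Lum and Fmod were not called, and was at 5.7 ± 0.545 FPKM at 1 week. B4galt1, a galactosyltransferase, was higher at all 3 stages, with 31.4 ± 2.44, 60.5 ± 3.72 and 25.7 ± 9.23 FPKM in MI mice.

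Of 15 tested ligands and receptors that decorin or biglycan bind, 12, 14 and 14 rose at the 3 stages and 1 fell at each. Of all tested genes 39.7%, 72.8% and 70.4% rose. The receptor that fell was Kdr, the VEGF receptor of endothelial cells, at 20.4 ± 0.543, 20.5 ± 1.66 and 22 ± 6.85 FPKM in MI against 32.9 ± 4.32, 40.1 ± 4.62 and 37.9 ± 1.73 FPKM in sham mice. Cd14, a co-receptor of the Toll-like receptors to which soluble biglycan binds, rose from 2.68 ± 0.575 to 158.8 ± 76.8 FPKM at 1 day, and Cd44 from 2.88 ± 0.52 to 67.7 ± 21.3 FPKM. Tgfb3 rose from 4.65 ± 0.337 to 128.6 ± 9.35 FPKM at 1 week and was at 39.5 ± 17.1 FPKM at 8 weeks. Ccn4 (Wisp1 in the table) rose from 0.456 ± 0.0856 to 58.9 ± 6.73 FPKM at 1 week, and Lrp1, which takes up decorin, from 7.68 ± 0.679 to 62.4 ± 39.8 FPKM at 8 weeks.

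Of 14 tested proteases that process or cleave these proteins, 10, 13 and 13 rose and 3, 0 and 0 fell. The shares of all tested genes were 39.7%, 72.8% and 70.4% higher and 30.6%, 16.5% and 10.6% lower. With the median of each library subtracted, 8 rose and 1 fell at 1 week, and 8 rose and 2 fell at 8 weeks. Under that scaling 4759 of all 12858 tested genes were higher and 5606 lower at 1 week. At 8 weeks these were 3575 and 5534. At 1 day the largest rises were the neutrophil collagenase Mmp8 (0.126 ± 0.0368 FPKM in sham and 46.3 ± 8.63 FPKM in MI mice) and Mmp9 (0.845 ± 0.316 and 73.7 ± 23.5 FPKM), while Htra1 and Mmp2 fell with log2 changes of -1.02 ± 0.18 and -0.72 ± 0.28. At 1 week Mmp14, a membrane-bound protease, reached 234.1 ± 38.8 FPKM from 5.33 ± 0.96 FPKM, and Mmp12, the macrophage elastase, 19.4 ± 5.78 FPKM from 0.0881 ± 0.00891 FPKM. At 8 weeks Mmp12 stood at 48.8 ± 10.6 FPKM and Mmp2 at 133.1 ± 76.4 FPKM against 9.71 ± 0.565 FPKM in sham mice.

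Of 17 tested proteoglycans outside the family, 8, 15 and 16 rose at the 3 stages and 3, 1 and 1 fell. Among all tested genes 39.7%, 72.8% and 70.4% rose and 30.6%, 16.5% and 10.6% fell. At 1 day 6 of the 17 fell under each of 4 other scalings, where 4879 to 6112 of all 12858 tested genes did so. Srgn (serglycin, of blood cell granules) rose from 27.3 ± 3.15 to 1157 ± 329.5 FPKM at 1 day, and Prg4 (lubricin) from 5.18 ± 0.825 to 144.2 ± 32.3 FPKM. Gpc1, a membrane glypican, was lower at all 3 stages (log2 changes -1.89 ± 0.12, -1.09 ± 0.12 and -0.65 ± 0.12), and Agrn (agrin) fell at 1 day (-0.5 ± 0.15). At 1 week Acan (aggrecan, of cartilage) went from 0.0443 ± 0.0321 to 23.2 ± 6.44 FPKM and Gpc6 from 2.29 ± 0.348 to 48.7 ± 2.7 FPKM. At 8 weeks Sdc1 rose from 1.15 ± 0.115 to 17.6 ± 7.59 FPKM, and Gpc3 from 0.874 ± 0.0537 to 26.5 ± 28.6 FPKM, with a spread larger than its mean.

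The genes most like each member over the 18 libraries were read from Pearson's r of log2(FPKM + 1), as a description of libraries that share stage and tissue. They included Abi3bp (r = 0.991) for Dcn, and were Serpinf1 (0.998) and Leprel2 (0.997) for Bgn, and Col6a1 (a collagen VI chain, 0.995) and Fkbp7 (0.994) for Aspn. For Lum they were Lhfp (0.999) and Ccdc80 (0.997), for Fmod Dkk3 (0.998) and 1500015O10Rik (0.998), and for Prelp Itga8 (0.995) and Cst3 (0.993). For Ogn they were Pcyox1 (0.994) and Txndc16 (0.992), and for Omd Nalcn and Atp6v0a4 (0.991 each). No gene was named for more than 1 member. Among the members themselves r ran from 0.82 (Dcn and Ogn) to 0.99 (Bgn and Lum). Serpinf1 had the course of Bgn, at 11.2 ± 0.76, 336.1 ± 25.7 and 170.3 ± 93.9 FPKM in MI mice at the 3 stages. Col6a1, like Aspn, was below sham at 1 day (7.27 ± 1.01 against 15.3 ± 2 FPKM) and highest at 1 week (274.4 ± 7.72 FPKM).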

How the data were processed

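Left ventricular mRNA of 18 libraries was analysed, and the 18 small RNA samples were not used. Per the sample records the authors used TopHat2 2.0.13, Bowtie2 2.2.3 and Cufflinks 2.2.1 with build mm10, and deposited FPKM per gene and normalized log2 values of FPKM + 1. Their columns of fold changes and p-values were not used. Counts and absolute depth are unknown, so a count model could not be used and the depth limits low values most.

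The filter kept 12858 of 16415 genes, those reaching 1 FPKM in 3 or more of the libraries. They were tested with limma (version 3.58.1, R 4.3.3, intensity trend, 6 groups, 12 residual degrees of freedom) on log2(FPKM + 1), with Benjamini-Hochberg adjustment over all tested genes and a threshold of 0.05. Changes on this scale understate those of low genes. Changes relative to Dcn used the log2 value minus that of Dcn in the same library. The steps were tested on simulated data. Folds are ratios of mean FPKM. Motifs were searched in RefSeq promoter windows.

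The 8 members and all gene lists were chosen with earlier results of these data known. Named were the members, other family genes past the filter, per list and stage up to 2 called rises and 2 called falls of largest size with a mean of at least 5 FPKM in a group, and 2 nearest genes per member, of which 1 is not reported here. The family sums, ratios and marker genes of the late MI libraries were chosen after seeing the values. Alternatives were a pseudocount of 0.1, other filters, 4 other scalings, each stage alone, no trend, a replicate block and leaving out libraries.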

Additional observations from a re-analysis of the deposited data

Results flagged for a closer look

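The differences between stages that passed the test of the difference itself were set apart, on the log2(FPKM + 1) scale, with limma over 18 libraries. From 1 day to 1 week the change in MI became more positive by 4.3 for Prelp, 5.92 for Fmod, 4.96 for Ogn, 4.36 for Lum, 1.8 for Omd, 2.13 for Dcn, 6.57 for Aspn and 4.49 for Bgn. From 1 week to 8 weeks it became more positive by 1.45 for Prelp and 1.14 for Fmod, and for Aspn it moved by -1.74. From 1 day to 8 weeks it became more positive by 5.76 for Prelp, 7.06 for Fmod, 4.64 for Ogn, 4 for Lum, 2.59 for Omd, 2.97 for Dcn, 4.83 for Aspn and 3.99 for Bgn. Of all tested genes 60.0%, 17.1% and 51.8% were called more positive in these contrasts, in the same order, and 11.8%, 29.9% and 11.9% less positive. From 1 week to 8 weeks the calls for Prelp and Fmod rested on late MI replicates 2 and 3, and were lost without both. Groups held 3 libraries each, and no test for outlying libraries was run. With each library left out in turn, 2 to 5 members were called for 8 weeks against 1 week.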

How the results depend on the processing

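All 8 members stayed higher in MI at 1 week and at 8 weeks, and with a more positive change at either stage than at 1 day, in every alternative that tested them (Omd was not tested with a mean of at least 5 FPKM). At 1 day 3 members were called, 3 to 4 without 1 library, 6 with each stage fitted alone (1 higher, 5 lower) and 5 with late MI replicate 1 as the only library of its group, a choice made after seeing the data. Of all 12858 genes 5668 were higher and 4363 lower in the former fit, and 5826 and 4455 in the latter. The cause of the added calls was not tested. For 8 weeks against 1 week the count was 3, 2 to 5 without 1 library, and 5 with median-ratio factors or with the median of each library subtracted, the latter also chosen after seeing the data. In the main fit 17.1% of all tested genes were higher and 29.9% lower in this contrast. Between sham groups the count of members was 0, where 1.42% and 0.848% of all tested genes were called. At 1 week against 1 day it was 1 with a pseudocount of 0.1, with median-ratio factors or with medians subtracted, 4 with late MI replicate 1 alone, and 0 to 2 without 1 library. At 8 weeks against 1 week it was 4 with late MI replicate 1 alone and 0 to 2 without 1 library. Relative to Dcn at 8 weeks, 6 were called, 3 with this stage fitted alone and 5 to 7 without 1 library. In the main fit 0.708% of all tested genes were higher relative to Dcn and 97.3% lower, as Dcn itself rose. The shares of all tested genes differ between fits, so counts of members from different fits cannot be compared by themselves.

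Under a replicate block the counts of called members were 3, 8 and 8 for MI against sham, 8, 3 and 8 between stages, 0 and 0 between sham groups, and 3, 7 and 6 relative to Dcn. Of all 12858 tested genes this fit called 5094, 9362 and 9024 higher and 3919, 2122 and 1342 lower for MI against sham. Bgn at 1 day relative to Dcn was the call lost. Same-numbered MI and sham libraries share a number only, with correlations of their deviations between -0.0919 and 0.29.

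Other directions that turned were B3gat3 at 1 week (-0.33 with quantile normalization, -0.47 with median-ratio factors, -0.34 with the authors' normalized values, -0.42 with medians subtracted) and at 8 weeks (-0.09, -0.21, -0.1 and -0.19), B4galt7 at 1 day (-0.01, -0.02 with the authors' values and -0.03 with medians subtracted), Mmp8 at 8 weeks (-0.33 with medians subtracted) and Srgn at 1 week (-0.08 with median-ratio factors).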
